A study of Homo sapiens with 12 samples.

Results

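The genes described here are NFE2L2, which encodes the transcription factor NRF2, and 9 genes known as its antioxidant and detoxification targets: HMOX1, NQO1, GCLM, TXNRD1, SRXN1 and the aldo-keto reductases AKR1C1, AKR1C2, AKR1C3 and AKR1B10. They were chosen by name, with earlier results of these data known. All 10 were found among the 60675 genes of the count tables. Their mRNA was measured by poly(A) RNA-seq in MDA-MB-468 and HCC1187, established human cell lines from triple-negative breast tumours that the labels call basal-like. In each line, 3 control libraries (genotype shCONTROL, hairpin sh-LacZ, against a bacterial gene) were compared with 3 libraries that received a hairpin against the long non-coding RNA SOX9-AS1 (sh-SOX9-AS1), all after 48 hours of transfection. The labels name 1 hairpin for each target, the lines grew in different media (MDA-MB-468 in DMEM, HCC1187 in RPMI-1640, each with serum), and the labels do not say whether a group's libraries are separate cultures, so p-values measure only the spread between libraries. Libraries are called S1 to S3 (MDA-MB-468 control), S4 to S6 (MDA-MB-468 knockdown), S7 to S9 (HCC1187 control) and S10 to S12 (HCC1187 knockdown), after their column names.

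In unstressed cells the adaptor KEAP1 holds NRF2 and hands it to a CUL3 ubiquitin ligase, which marks it for degradation. Oxidants and electrophiles modify KEAP1, NRF2 accumulates, pairs with small MAF proteins and binds antioxidant response elements in front of its targets, where BACH1 competes with it. Control of NRF2 is largely at the protein, so the NFE2L2 transcript does not report NRF2 activity, which was not measured here. The targets supply glutathione and reduced thioredoxin, degrade haem and reduce quinones and carbonyls, and high levels of this programme are known in drug-resistant carcinoma cells.

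Counts were taken from 1 of the 3 sequencing lanes of each library, and that lane held 6026376 to 10160040 counts. All counts, totals and CPM values below are from this lane. The target itself, SOX9-AS1, measured 5.52, 6.70 and 5.95 CPM (the count divided by the library's total and multiplied by 1000000) in S1 to S3 and 5.04, 4.55 and 4.96 in S4 to S6. The 2 groups of MDA-MB-468 did not overlap, but the difference was not called (log2 fold change -0.30 ± 0.20 (SE), edgeR quasi-likelihood test with TMM scaling, p adjusted over all genes tested by the Benjamini-Hochberg method = 0.417; without S4 -0.32 ± 0.23, adjusted p = 0.274). In HCC1187 SOX9-AS1 measured 2.54, 1.54 and 1.85 CPM in the controls and 1.33, 0.771 and 0.886 in the knockdown libraries, a called fall of 1.08 ± 0.36 on the log2 scale (adjusted p = 0.0349). Library S4, labelled knockdown, stood apart from S5 and S6: over 15491 genes its log2 CPM correlated with the 3 controls at r = 0.990 to 0.995 and with S5 and S6 at r = 0.976 and 0.972, while S5 and S6 correlated with each other at 0.995. The deposited sample table used here has rows for the other libraries and not for S4. The MDA-MB-468 fits of the 10 genes are therefore given with S4 and without it, a choice made after seeing the data. Other genes are given without it beside their level in S4, except where the text says that S4 or all 12 libraries were included. Markers fixed for the cell types showed 5 of 5 epithelial and 7 of 7 basal genes at 1 CPM or more in MDA-MB-468. In HCC1187 these were 4 of 5 and 4 of 7, with the epithelial KRT19 and the basal KRT5, KRT14 and KRT6B at or near 0. The basal FOXC1 went the other way, with a mean of 197.5 CPM in HCC1187 controls against 80.1 CPM in MDA-MB-468 controls. Leukocyte markers summed to at most 0.379 CPM in MDA-MB-468 controls and to 2.48 to 3.60 CPM in HCC1187 controls. In HCC1187 the 5 epithelial markers summed to 315 to 318 CPM in controls and 262 to 288 CPM in knockdown libraries, the 7 basal ones to 255 to 276 and 219 to 235 CPM, and the 4 endothelial ones to 1.09 to 2.12 and 2.47 to 4.43 CPM. In MDA-MB-468 the basal sum was 7892 to 7992 CPM in controls and 5774 to 8057 CPM in knockdown libraries. The part of these shifts in the results below was not tested. In bulk RNA, fewer cells of a type and less RNA per cell cannot be told apart.

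In MDA-MB-468 as labelled, with all 6 libraries, none of the 10 genes was called at an adjusted p under 0.05 by edgeR. In the same test 1 of 13638 genes (0.00733%) was called in either direction. At an unadjusted p under 0.05 there were 4 of the 10 (NFE2L2, NQO1, GCLM and AKR1C1), against 2554 of the 13638 genes tested. DESeq2 called 304 genes and none of these 10, and limma-voom called no gene. Without S4, 9 of the 10 fell, SRXN1 being the exception, where 20.7% of the 13947 genes tested were called lower and 20.0% higher. The 10 genes had a median log2 fold change of -0.74 without S4, against -0.00 over all genes tested. Because the 10 were chosen with earlier results of these data known, these figures describe them and do not test them as a group. All 10 were below every control in both S5 and S6, which 32.9% of the genes tested also were. With S4 counted in, 2 of the 10 (NFE2L2 and GCLM) were below every control in all 3 knockdown libraries, where 12.5% of the genes tested were.

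In HCC1187, 6 of the 10 had enough counts to be tested. HMOX1, GCLM and TXNRD1 fell, and NFE2L2, NQO1 and SRXN1 were not called. Of the 14970 genes tested there, 13.1% were called lower and 9.78% higher. The same 3 genes, of the 6 tested, had every knockdown library below every control, which held for 15.5% of the genes tested. Scaled by library totals alone, without TMM (which corrects totals for a few very abundant genes), the share of rises among all called genes moved from 42.8% to 57.7%, and the 3 falls were still called.

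**Figure D1:**
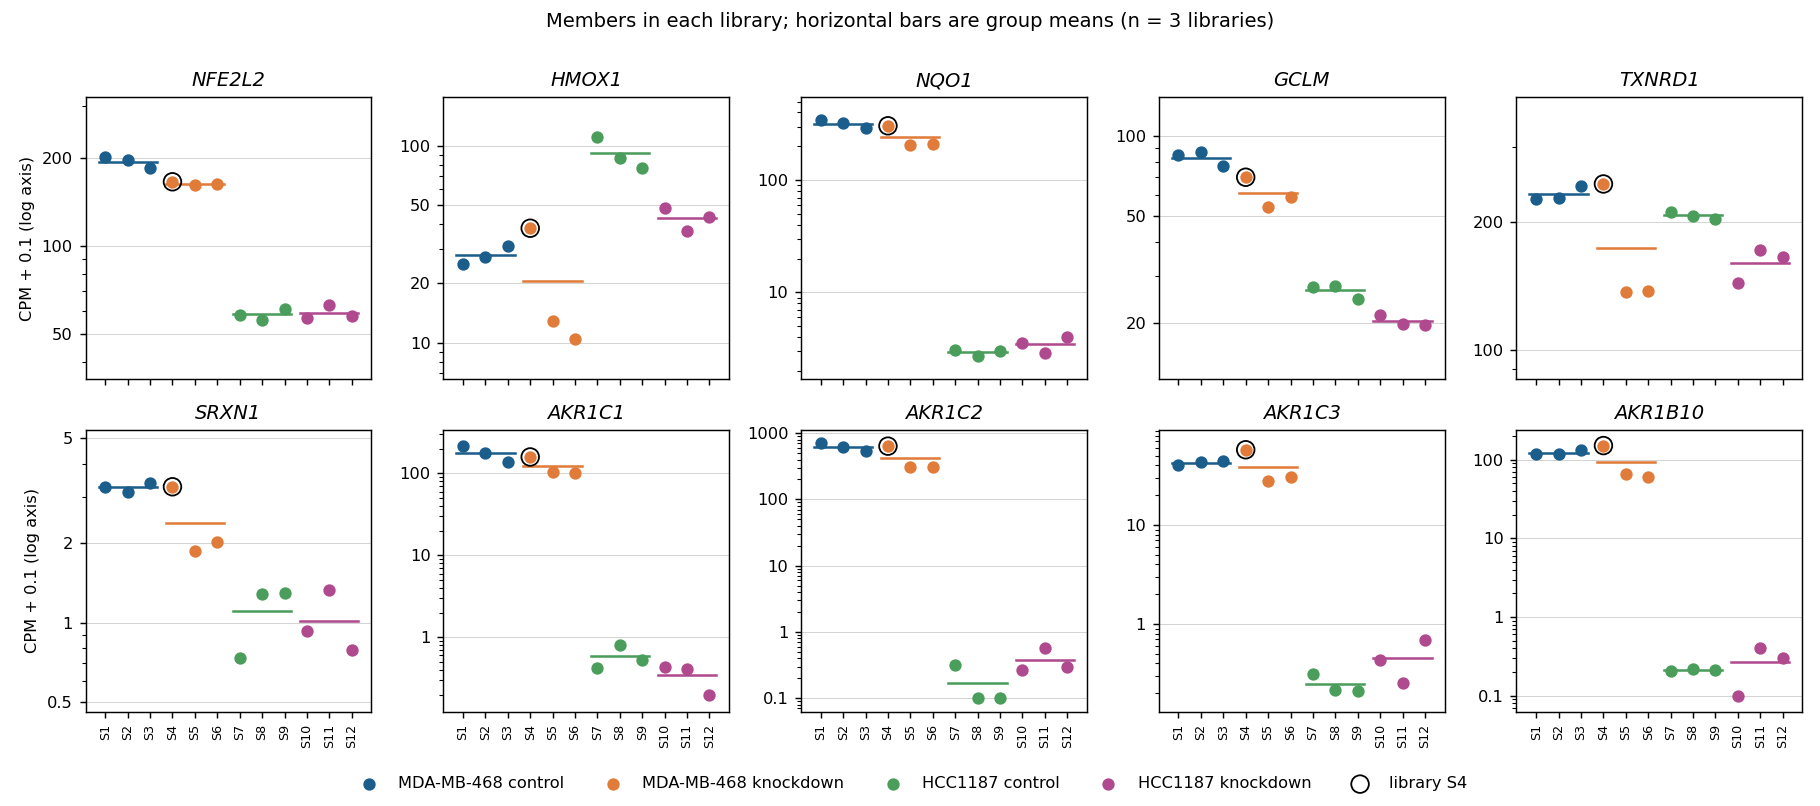
CPM plus 0.1 on a log axis (vertical) of each gene in each of the 12 libraries (horizontal); bars are means of 3 libraries and the open circle marks S4. S4 is above the lowest MDA-MB-468 control for 8 of the 10 genes, and the 4 aldo-keto reductases lie below 1 CPM in all 6 HCC1187 libraries.

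NFE2L2 (ENSG00000116044, chr2:177227595-177392697, minus strand, GRCh38) encodes NRF2 itself. Its level was 202, 196 and 184 CPM in the MDA-MB-468 controls and 166, 161 and 163 CPM in S4 to S6. Here S4 stood beside S5 and S6, all 3 lying below the controls. The log2 fold change was -0.23 ± 0.09 with S4 (adjusted p = 0.244) and -0.24 ± 0.08 without it (adjusted p = 0.0314). The call without S4 was lost with DESeq2 (adjusted p = 0.0576) and when S1, S2, S5 or S6 was also left out (adjusted p = 0.108 to 0.161); without S5 or S6 the knockdown arm is 1 library, assumed to vary like the controls. In HCC1187 NFE2L2 measured 58.1, 55.9 and 61.0 CPM in the controls and 56.8, 62.9 and 57.4 CPM in the knockdown libraries. These groups overlapped, and the log2 fold change was -0.04 (95% interval -0.24 to 0.16, adjusted p = 0.798). The annotated exons of NFE2L2 share 17.6% of their bases with AC019080.1, a transcript on the same strand that received 150 counts over the 12 libraries.

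HMOX1 (ENSG00000100292, chr22:35380361-35394214, plus strand) encodes haem oxygenase 1, which opens the haem ring and releases iron, biliverdin and carbon monoxide; its gene is a known site of repression by BACH1. It measured 25.02, 27.1 and 30.8 CPM in the MDA-MB-468 controls. S4 stood above all 3 at 38.0 CPM, and S5 and S6 stood well below at 12.8 and 10.3 CPM. With S4 the log2 fold change was -0.43 ± 0.42 (adjusted p = 0.575), and without it HMOX1 fell by 1.23 ± 0.16 on the log2 scale, 2.35-fold (adjusted p = 2.1e-05). In HCC1187 the controls measured 110, 86.8 and 76.9 CPM and the knockdown libraries 48.0, 36.7 and 43.3 CPM. The highest knockdown library lay below the lowest control. The fall of 1.16 ± 0.12 on the log2 scale, 2.23-fold (adjusted p = 3.0e-07), was the 75th lowest log2 fold change of the 14970 genes tested. It was called under each of the 13 alternatives run, with log2 fold changes of -1.26 to -1.01.

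NQO1 (ENSG00000181019, chr16:69706996-69726951, minus strand) encodes a quinone reductase that uses NADH or NADPH to reduce quinones in a single transfer, and it is a standard readout of NRF2. The MDA-MB-468 controls held 342, 320 and 291 CPM, S4 304 CPM, and S5 and S6 206 and 208 CPM. S4 fell among the controls and the other knockdown libraries below them. The log2 fold change was -0.39 ± 0.16 with S4 (adjusted p = 0.248) and -0.59 ± 0.09 without (adjusted p = 7.7e-05). HCC1187 had 2.97, 2.60 and 2.94 CPM in controls and 3.48, 2.78 and 3.94 CPM in knockdown libraries. The groups overlapped (log2 fold change 0.23 ± 0.25, adjusted p = 0.55). An antisense transcript, AC092115.2, covers 17.7% of the exon bases of NQO1 and had no count in the 12 libraries.

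GCLM (ENSG00000023909, chr1:93885205-93909456, minus strand) encodes the modifier subunit of glutamate-cysteine ligase, the rate-limiting enzyme of glutathione synthesis. The MDA-MB-468 controls held 84.4, 87.0 and 76.9 CPM, and S4 to S6 held 69.9, 54.2 and 58.9 CPM. All 3 knockdown libraries lay below the controls, S4 nearest to them. The log2 fold change was -0.42 ± 0.12 with S4 (adjusted p = 0.205) and -0.53 ± 0.10 without (adjusted p = 0.00065). In HCC1187 GCLM measured 27.2, 27.3 and 24.5 CPM in the controls and 21.2, 19.8 and 19.6 CPM in the knockdown libraries. The groups did not overlap, and GCLM fell by 0.44 ± 0.12 on the log2 scale (adjusted p = 0.00873).

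Promoter letters are shown for GCLM and TXNRD1 because their windows held a match in the search described next. These genes fell in both lines (in MDA-MB-468 without S4), as did HMOX1. Whether the matches bear on the falls was not tested. The core of the antioxidant response element, TGACNNNGC (on the other strand GCNNNGTCA), was searched on both strands of the RefSeq promoter windows (GRCh38.p14), which run from 250 bases before each transcription start to 50 after it. Of all 35116 windows, 13.4% held a match. Windows were found for 8 of the 10 symbols, 11 in all, and 3 held a match: the GCLM window and both TXNRD1 windows. The stretches below are written 5′ to 3′ on the gene's strand, with the matches in capitals; they lie at chr1:93909426-93909494 (minus strand), chr12:104215650-104215809 (plus) and chr12:104286900-104286968 (plus).
GCLM: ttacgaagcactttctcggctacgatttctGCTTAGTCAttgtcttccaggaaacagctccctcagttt
TXNRD1, upstream start: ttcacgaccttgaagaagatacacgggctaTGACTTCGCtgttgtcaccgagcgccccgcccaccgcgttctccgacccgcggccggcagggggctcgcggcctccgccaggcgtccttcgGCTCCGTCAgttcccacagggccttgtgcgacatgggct
TXNRD1, downstream start: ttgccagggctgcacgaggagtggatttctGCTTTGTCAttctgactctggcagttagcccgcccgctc
The GCLM match begins at base -34 from the transcription start, the matches at the upstream TXNRD1 start at -99 and -8, and the match at the downstream one at -102. The windows of NFE2L2, NQO1, SRXN1, AKR1C1, AKR1C2 and AKR1C3 did not hold these letters, which says nothing of sequence outside the window; promoters of HMOX1 and AKR1B10 were not analysed here.

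TXNRD1 (ENSG00000198431, chr12:104215779-104350305, plus strand) encodes cytosolic thioredoxin reductase, a selenoenzyme that keeps thioredoxin reduced with NADPH. It measured 226, 228 and 242 CPM in the MDA-MB-468 controls, 246 CPM in S4, and 136 and 138 CPM in S5 and S6. S4 was the highest of the 6 libraries and S5 and S6 the lowest. The log2 fold change was -0.40 ± 0.21 with S4 (adjusted p = 0.328) and -0.73 ± 0.08 without (adjusted p = 6.9e-06). In HCC1187 the controls held 211, 207 and 203 CPM and the knockdown libraries 144, 172 and 166 CPM. The groups did not overlap, and TXNRD1 fell by 0.42 ± 0.09 on the log2 scale (adjusted p = 0.00137). With all 12 libraries in 1 fit that call was lost (adjusted p = 0.144).

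SRXN1 (ENSG00000271303, chr20:646615-653370, minus strand) encodes sulfiredoxin, which restores over-oxidised peroxiredoxins. Its counts were low, 83 in the 3 MDA-MB-468 controls together. Levels were 3.17, 3.04 and 3.27 CPM in those controls, 3.17 CPM in S4, and 1.77 and 1.93 CPM in S5 and S6. S4 lay among the controls and S5 and S6 below them, yet the difference missed the threshold without S4 too (log2 fold change -0.75, 95% interval -1.42 to -0.08, adjusted p = 0.0687). In HCC1187 the 6 libraries ranged from 0.636 to 1.23 CPM and the groups overlapped (log2 fold change -0.23 ± 0.43, adjusted p = 0.752). The overlapping coding model AL121758.1, on the same strand, shares 85.0% of the exon bases of SRXN1 and had no count in the 12 libraries; whether reads in the shared exons were assigned to SRXN1 was not tested, so its level may be too low.

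AKR1C1 (ENSG00000187134, chr10:4963253-4983283, plus strand), AKR1C2 (ENSG00000151632, chr10:4987400-5018031, minus strand) and AKR1C3 (ENSG00000196139, chr10:5035354-5107686, plus strand) lie side by side and encode NADPH-dependent reductases of steroid hormones, prostaglandins and reactive aldehydes. AKR1C2 measured 710, 620 and 543 CPM in the MDA-MB-468 controls, 638 CPM in S4, and 309 and 308 CPM in S5 and S6. AKR1C1 measured 214, 179 and 136 CPM in the controls, 158 CPM in S4, and 105 and 101.3 CPM in S5 and S6. AKR1C3 measured 40.4, 43.5 and 43.9 CPM in the controls, 57.5 CPM in S4, and 27.9 and 30.7 CPM in S5 and S6. S5 and S6 lay below all controls for each of these genes, while S4 lay among the controls for AKR1C1 and AKR1C2 and above them for AKR1C3. With S4 the log2 fold changes were -0.56 ± 0.27 for AKR1C2, -0.52 ± 0.21 for AKR1C1 and -0.12 ± 0.25 for AKR1C3 (adjusted p = 0.293, 0.246 and 0.806). Without it AKR1C2 fell by 0.99 ± 0.10 (adjusted p = 2.5e-06), AKR1C1 by 0.75 ± 0.14 (adjusted p = 0.00055) and AKR1C3 by 0.52 ± 0.11 (adjusted p = 0.00204).

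How reads divide among these neighbours is uncertain, because their sequences are nearly the same in places. Of the 76-base words of AKR1C2 coding transcripts (GENCODE v29), 36.5% also occur in another AKR1 gene, 34.97% in AKR1C1; the shares were 20.6% for AKR1C1 and 6.03% for AKR1C3. The likeness extends to their promoters, of which the stretch around the start is shown for AKR1C1 and AKR1C2 because it holds all the bases that differ. The stretches, chr10:4963354-4963464 (plus strand) and chr10:5003816-5003922 (minus strand), have in capitals the bases that differ or, in AKR1C1, are absent from the other.
AKR1C1: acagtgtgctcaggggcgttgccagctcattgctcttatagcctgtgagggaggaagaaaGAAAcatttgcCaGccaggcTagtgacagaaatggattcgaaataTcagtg
AKR1C2: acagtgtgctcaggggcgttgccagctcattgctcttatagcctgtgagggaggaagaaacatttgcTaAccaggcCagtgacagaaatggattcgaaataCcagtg
The windows were identical over 245 aligned bases up to a 4-base gap in AKR1C2, and 43 of the 47 bases after it matched. Placed without gaps, the AKR1C3 windows matched them at 48.0% to 54.0% of bases, where AKR1C1 and AKR1C2 matched each other at 89.2%. Inserted or missing bases lower such a share, so it may understate the likeness of AKR1C3, for which no gap was tried. Summing the 3 genes before the fit removes the question of how reads were divided among them. How reads matching more than 1 gene were counted was not tested, so the sum may still be too low. The sum was 964, 842 and 722 CPM in the controls, 854 CPM in S4, and 442 and 440 CPM in S5 and S6. It fell by 0.91 ± 0.10 on the log2 scale without S4 (adjusted p = 6.8e-06), and with S4 the log2 fold change was -0.52 ± 0.25 (adjusted p = 0.29). AKR1C2 made up 73.6% to 75.1% of that sum in S1 to S4 and 70.0% in both S5 and S6 (Wilson 95% intervals 68.5 to 71.5 and 68.4 to 71.6, counting error only).

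**Figure D2:**
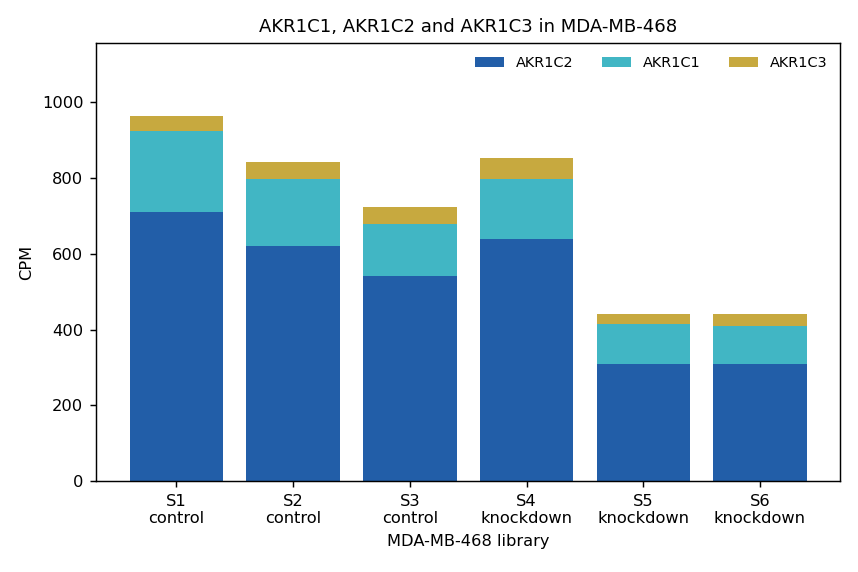
Stacked bars of AKR1C2, AKR1C1 and AKR1C3 in CPM (vertical, from 0) in each MDA-MB-468 library (horizontal). The summed level was 722 to 964 CPM in the controls and S4, and 442 and 440 CPM in S5 and S6.

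AKR1B10 (ENSG00000198074, chr7:134527592-134541408, plus strand) encodes an aldo-keto reductase of retinal and aliphatic aldehydes. It measured 118, 118 and 132 CPM in the MDA-MB-468 controls, 152 CPM in S4, and 65.3 and 60.3 CPM in S5 and S6. S4 was the highest library and S5 and S6 the lowest. The log2 fold change was -0.39 ± 0.31 with S4 (adjusted p = 0.49) and -0.94 ± 0.10 without (adjusted p = 2.6e-06). Its neighbour in sequence AKR1B15, which shares 4.55% of the 76-base words of AKR1B10, moved the other way without S4, with 26.7 CPM in the controls, 40.6 CPM in S5 and S6 and 30.3 CPM in S4 (a log2 rise of 0.63 ± 0.13, adjusted p = 0.00155).

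In HCC1187 the 4 aldo-keto reductases did not pass the count filter of that line's fit. Summed over 3 libraries, AKR1C1 had 13 counts in the controls and 5 in the knockdown group, AKR1C2 had 2 and 6, AKR1C3 had 4 and 9, and AKR1B10 had 3 and 4. No library held more than 0.710 CPM of any of them. A count of 3, the most that a library with none could still hide, corresponds to 0.295 to 0.498 CPM in these 6 libraries, so a fall with the hairpin was not detectable at this depth.

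**Figure D3:**
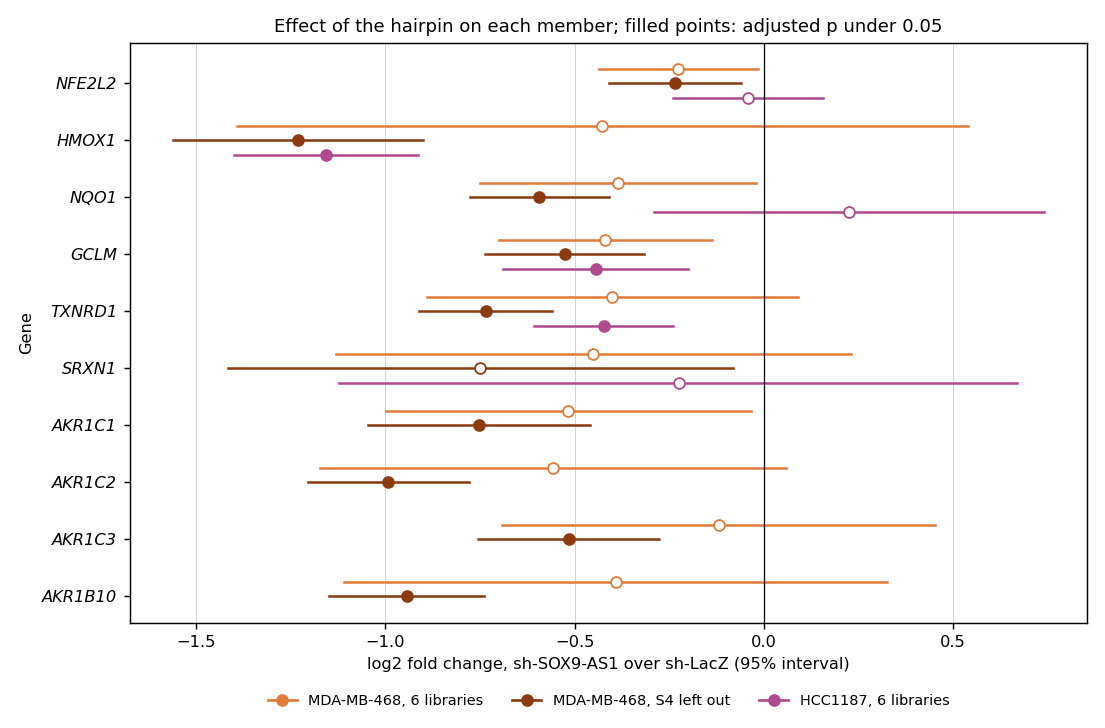
Log2 fold change of sh-SOX9-AS1 over sh-LacZ (horizontal) with its 95% interval for each gene (vertical): MDA-MB-468 with 6 libraries, MDA-MB-468 without S4, and HCC1187; filled points have an adjusted p under 0.05. Without S4 the MDA-MB-468 intervals narrow and 9 of 10 points are filled, and the HCC1187 row holds 3 filled points, HMOX1 (-1.16), GCLM (-0.44) and TXNRD1 (-0.42).

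The difference between the lines was tested as an interaction, the HCC1187 effect minus the MDA-MB-468 effect. It bears on NFE2L2, HMOX1, NQO1, GCLM and TXNRD1, since the other 5 passed the count filter only through MDA-MB-468 and could show little of a change in HCC1187. With all 12 libraries none of the 10 was called by edgeR, by DESeq2 or by limma-voom, where edgeR called 3.75% of 16328 genes. At an unadjusted p under 0.05 in edgeR there was 1 of the 10, NQO1, against 3367 of the 16328 genes. Without S4, NQO1 differed, by 0.83 ± 0.23 on the log2 scale (adjusted p = 0.00998), where 25.6% of 16807 genes were called. That call was lost when S12 was left out as well (0.67, adjusted p = 0.0855). TXNRD1 differed by 0.31 ± 0.12 (adjusted p = 0.0584) and crossed the threshold when libraries were scaled by totals alone (0.39, adjusted p = 0.0138) or when S10 was left out (0.40, adjusted p = 0.0101). For HMOX1 the 95% interval of the difference was -0.35 to 0.51 without S4 and -1.66 to 0.23 with it, and for GCLM it was -0.22 to 0.39 and -0.34 to 0.32.

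Between the controls of the lines, HCC1187 minus MDA-MB-468, the order of the genes differed as well as their levels, and line and medium cannot be told apart. In 15592 genes tested, 40.4% were lower and 43.6% higher in HCC1187. NFE2L2, HMOX1, NQO1, GCLM and TXNRD1 passed the count filter in both lines. Of these 5, HMOX1 was higher in HCC1187 (log2 difference 1.49 ± 0.12, adjusted p = 1.3e-10). NFE2L2 was lower by a log2 difference of -1.97 ± 0.08 (adjusted p = 1.1e-15), and GCLM by -1.88 ± 0.09 (adjusted p = 3.6e-14). NQO1 was lower by -7.03 ± 0.12 (adjusted p = 6.8e-22), from 318 ± 25.8 to 2.84 ± 0.204 CPM (SD, n = 3 libraries each). TXNRD1 stood closest, 232 ± 8.99 against 207 ± 4.25 CPM, a log2 difference of -0.40 ± 0.07 (adjusted p = 2.1e-05) that was -0.16 when scaled by totals alone (adjusted p = 0.0315). That scaling moved the median of all genes from 0.06 to 0.29.

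The other 5 passed the filter only through their MDA-MB-468 counts, so their difference was fixed by passing and is given as levels. SRXN1 had 83 counts in the MDA-MB-468 controls and 27 in those of HCC1187, a ratio of 3.17 (95% interval 2.03 to 5.09, counting error only). AKR1C1 had 4671 against 13 counts, a ratio of 370 (216 to 696). AKR1C2 had 16501 against 2 counts, a ratio of 8502 (2353 to 70210). AKR1C3 had 1115 against 4 (ratio 287, interval 112 to 1056), and AKR1B10 3222 against 3 (ratio 1107, interval 378 to 5370).

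Levels were also divided by exon length, which counts all annotated exons of a gene (8765 bases for AKR1C1, 1773 for AKR1B10). Which transcripts were expressed was not tested, so the order of the genes depends on these lengths and, for the AKR1C genes, on shared reads. Per kilobase the MDA-MB-468 controls held NQO1 at 107 ± 8.70 CPM per kb (SD, n = 3) and AKR1C2 at 96.6 ± 12.96, with overlapping ranges. AKR1B10 followed at 69.2 ± 4.66, then TXNRD1 at 34.6 ± 1.34 and NFE2L2 at 34.2 ± 1.59, which overlapped. AKR1C1 (20.1 ± 4.43) overlapped GCLM (15.3 ± 0.971), and HMOX1 (12.02 ± 1.27) overlapped AKR1C3 (10.9 ± 0.494); SRXN1 was lowest at 1.17 ± 0.0428, with the doubt about its shared exons given above. In the HCC1187 controls HMOX1 led at 39.7 ± 7.48 CPM per kb, above TXNRD1 at 30.9 ± 0.634, NFE2L2 at 10.3 ± 0.449, GCLM at 4.86 ± 0.294, NQO1 at 0.955 ± 0.0686 and SRXN1 at 0.373 ± 0.119, none of which overlapped its neighbour. In the HCC1187 knockdown libraries TXNRD1 (23.9 ± 2.18) was above HMOX1 (18.6 ± 2.46), so the leading pair had changed places.

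**Figure D4:**
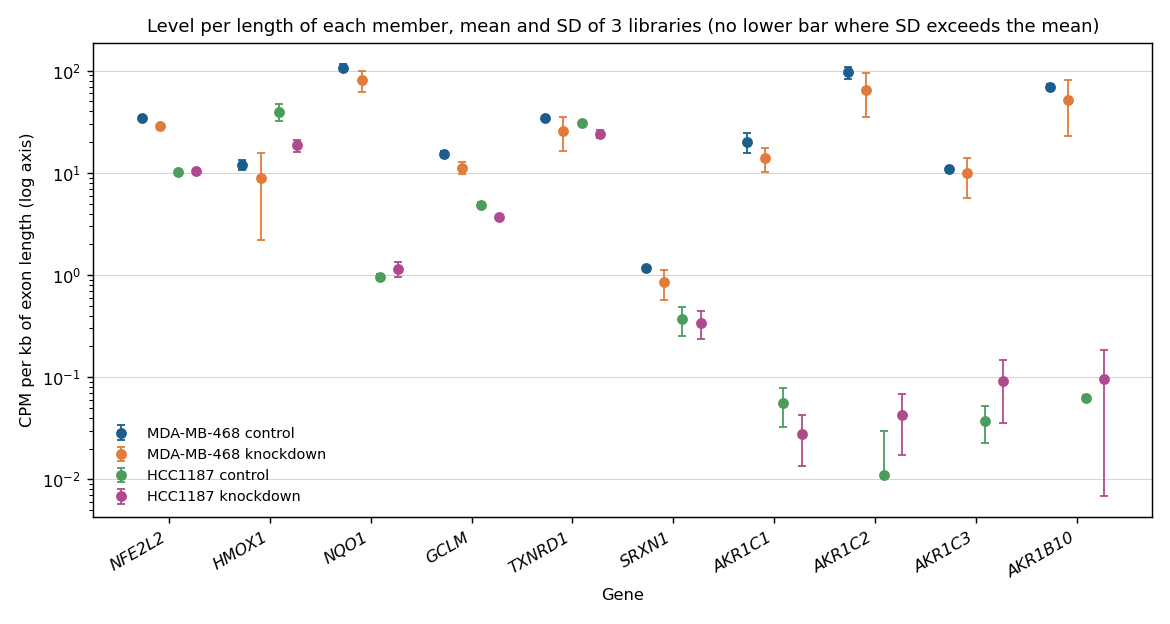
CPM per kb of exon length on a log axis (vertical) of each gene (horizontal), mean and SD of 3 libraries in each group; a lower bar is left out where the SD exceeds the mean. NQO1 and the 4 aldo-keto reductases differ most between the lines, and TXNRD1 (34.6 and 30.9 in the controls) least.

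The 10 genes together took 0.168% to 0.197% of counts in the MDA-MB-468 controls, 0.183% in S4 and 0.108% in both S5 and S6. In HCC1187 the share was 0.0370% to 0.0412% in the controls and 0.0275% to 0.0297% in the knockdown libraries. S4 lay within the control range and the other knockdown libraries below it in each line.

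Other genes of the pathway were taken from lists covering 121 symbols, 120 of them in the tables. These lists too were chosen with earlier results of these data known. In MDA-MB-468 without S4, 30 of 103 tested rose (29.1%) and 34 fell (33.0%), against 20.0% and 20.7% of all genes tested, the shares against which the counts for single lists below are also to be read, and the median log2 fold change was -0.04 against -0.00 over all genes. With S4, none of the 102 tested was called by edgeR. Among NRF2 regulators, 5 of 11 fell without S4, including KEAP1, the adaptor that marks NRF2 for degradation, from 227 to 127 CPM (S4 230 CPM; log2 fold change -0.82 ± 0.09, adjusted p = 4.3e-06). SQSTM1, the autophagy receptor that sequesters KEAP1, fell from 615 to 304 CPM (S4 655 CPM; adjusted p = 2.0e-07). BACH1, the competitor at response elements, measured 44.2 and 41.3 CPM (S4 37.2 CPM), and MAFF and MAFG, partners of NRF2, were not called either.

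Among genes of glutathione synthesis and use, 6 of 12 rose and 3 fell in MDA-MB-468 without S4. GLRX, glutaredoxin, rose from 9.27 to 23.8 CPM (S4 13.3 CPM; adjusted p = 9.6e-06) and GPX8 from 28.6 to 51.6 CPM (S4 29.5 CPM; adjusted p = 2.1e-05). SLC7A11, the light chain of the cystine importer, rose from 14.7 to 23.7 CPM (S4 11.5 CPM; adjusted p = 0.00285), while its heavy chain SLC3A2 fell from 309 to 187 CPM (S4 333 CPM; adjusted p = 2.6e-05). GCLC, the catalytic partner of GCLM, fell from 121 to 95.2 CPM (S4 123 CPM; adjusted p = 0.0121). In the thioredoxin list 5 of 13 rose and 2 fell, among them TXN, thioredoxin, from 173 to 122 CPM (S4 181 CPM; adjusted p = 0.00032).

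Of 9 genes of NADPH supply, 4 rose and 2 fell: IDH1 went from 143 to 330 CPM (S4 155 CPM; adjusted p = 1.5e-08) and ME1 from 69.3 to 114 CPM (S4 68.7 CPM; adjusted p = 1.1e-05), both cytosolic sources of NADPH. In the list of conjugation, quinone and carbonyl detoxification and export, 8 of 27 rose and 11 fell. The aldehyde dehydrogenase ALDH3A1 fell from 12.4 to 1.89 CPM (S4 6.48 CPM; adjusted p = 0.00031). Of 8 haem and iron genes 3 fell and 1 rose, the ferritin heavy chain FTH1 falling from 4556 to 2530 CPM (S4 4339 CPM; adjusted p = 1.5e-06). Of 9 further NRF2 targets 5 fell and 2 rose, with TRIM16L falling from 27.4 to 13.2 CPM (S4 34.1 CPM; adjusted p = 8.7e-05). Among 8 other aldo-keto reductases 3 rose and 1 fell, AKR1B1, the aldose reductase, from 1183 to 385 CPM (S4 1410 CPM; adjusted p = 3.9e-09). Of 6 superoxide and peroxide enzymes, catalase (CAT) rose from 176 to 246 CPM (S4 180.4 CPM; adjusted p = 0.00015). SOD1 fell from 255 to 201 CPM (S4 262 CPM; adjusted p = 0.00928) and the oxidase NOX5 from 3.85 to 1.19 CPM (S4 2.88 CPM; adjusted p = 0.00111).

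In HCC1187, 14 of 102 pathway genes tested rose (13.7%) and 12 fell (11.8%), near the 9.78% and 13.1% of all genes tested (median 0.02 against 0.01). BACH1 fell from 86.6 to 64.4 CPM (adjusted p = 0.00133) and MAFF from 12.3 to 6.44 CPM (adjusted p = 0.0004), while KEAP1 measured 59.1 and 66.0 CPM (adjusted p = 0.48) and SQSTM1 rose from 96.9 to 123 CPM (adjusted p = 0.0354). SLC7A11 fell from 13.7 to 7.50 CPM (adjusted p = 0.00042), and GCLC, at 70.2 and 68.1 CPM, was not called. In the thioredoxin list 3 of 14 rose and 2 fell. TXN measured 199 and 202 CPM, while TXNRD3, a relative of TXNRD1, rose from 12.3 to 21.2 CPM (adjusted p = 0.00037). SESN3, of the same list, fell from 103 to 70.1 CPM (adjusted p = 0.00022). None of 7 other aldo-keto reductases was called by edgeR, AKR1B1 measuring 166 and 171 CPM. Of 9 haem and iron genes 2 rose and 0 fell. These were BLVRB, from 21.5 to 30.4 CPM (adjusted p = 0.0143), and the ferritin light chain FTL, from 247 to 306 CPM (adjusted p = 0.0391).

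**Figure D5:**
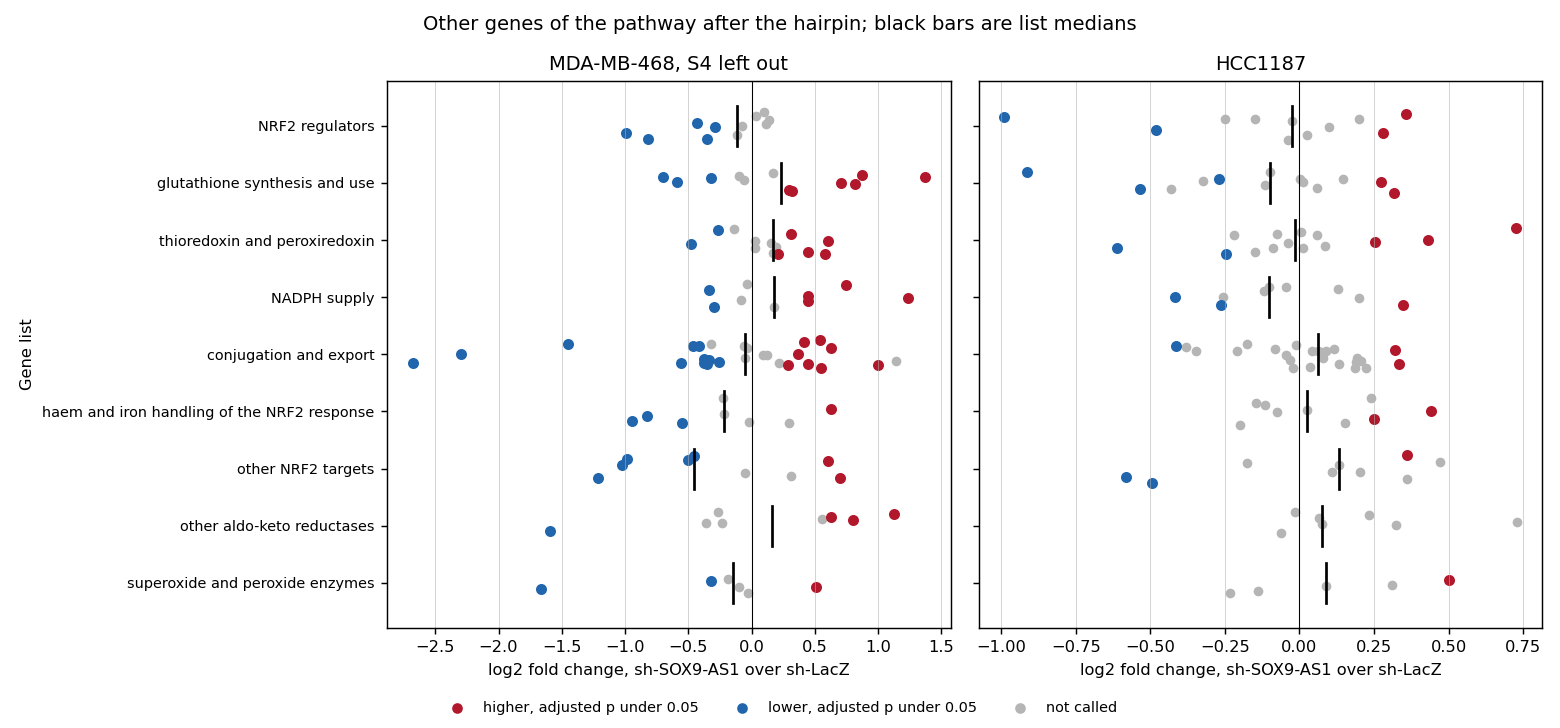
Log2 fold change of sh-SOX9-AS1 over sh-LacZ (horizontal) for each tested gene of 9 pathway lists (vertical), in MDA-MB-468 without S4 (left) and in HCC1187 (right), on separate horizontal scales; black bars are list medians. Rises and falls occur in most lists, and 39 of 103 genes on the left and 76 of 102 on the right are not called.

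Between the controls, 30 of 107 pathway genes tested were higher (28.0%) and 58 lower (54.2%) in HCC1187, against 43.6% and 40.4% of all genes (median log2 difference -0.37 against 0.06 over all genes). KEAP1 stood at 227 and 59.1 CPM in MDA-MB-468 and HCC1187, SQSTM1 at 615 and 96.9 CPM, and BACH1 at 44.2 and 86.6 CPM. Of 9 NADPH genes, 8 were called lower in HCC1187 with TMM scaling, but IDH2 among them, named after its values were seen, stood at 164 and 165 CPM on unscaled totals. TXNIP, the thioredoxin inhibitor, had no count in the 3 MDA-MB-468 controls, where 3 counts would be 0.306 to 0.379 CPM, and 132 CPM in HCC1187. The haem oxygenase HMOX2, a constitutive relative of HMOX1, was also higher in HCC1187 (34.5 against 4.29 CPM).

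For each gene the most similar patterns over the 12 libraries were sought among 12802 genes, by the root mean square difference of log2 CPM after centring each gene on its mean. NFE2L2 lay closest to the proteasome subunit gene PSMD8 (0.068 log2 units), GCLM to FAM210A (0.087) and TXNRD1 to DYNLL2 (0.1). HMOX1 had no such near neighbour, the closest being CBX6 (0.333). The same held for AKR1C2 (KLK5, 0.39), AKR1C1 (MYEOV, 0.309) and AKR1B10 (FOXI1, 0.306). NQO1 was the gene nearest to AKR1C3 (0.237), although NQO1 itself lay nearer to CCL28 (0.177). These log2 values had a prior count of 2 added. For the aldo-keto reductases, near 0 in HCC1187, and for NQO1, low there, the distances depend on that floor and on the gap between the lines. KLK5, FOXI1 and CCL28 had 0.0 CPM in the HCC1187 controls, so nearness to them says little of a shared pattern within a line. FNIP2, the next nearest to HMOX1, went from 35.3 to 19.1 CPM in S5 and S6 with 30.97 CPM in S4, and from 113 to 65.6 CPM in HCC1187.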

How the data were processed

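The deposited files hold raw counts per gene, 1 table for each line, with Ensembl identifiers, symbols and exon lengths. Per the submitters' processing notes the authors used FastQC 0.11.9, Trimmomatic 0.39, HISAT2 2.1.0 and featureCounts 2.0.0 with GRCh38; whether reads were counted by strand is unknown. Per the labels' protocols, libraries came from TRIzol RNA with a stranded mRNA kit, 76 bp paired reads. Each library has columns for 3 sequencing lanes, named by library and lane but without a replicate number. Of these, 12 columns (lane 1 of each library) were used, because a group was given no more columns than it has samples. The 24 columns of lanes 2 and 3 were not used, so depth and precision are about those of 1 lane. Columns named BLANCO were read as sh-SOX9-AS1 from the sample descriptions and the deposited sample table.

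Counts were tested with edgeR 4.0.16 (filterByExpr, TMM scaling, glmQLFit, glmQLFTest; R 4.3.3), p-values were adjusted by the Benjamini-Hochberg method over all genes tested, and a gene was called at an adjusted p under 0.05; the procedure was tested on simulated data. CPM was computed from unscaled totals. Alternatives were other scalings, DESeq2 1.42.0, limma-voom 3.58.1, other filters and thresholds, 1 fit of all libraries, summed AKR1C genes and leaving out each library. The 10 genes and the lists were chosen with earlier results of these data known. Beside the 10, the text names up to 2 genes per list with the largest called rise and 2 with the largest called fall at an average log2 CPM of at least 1, KEAP1, BACH1, MAFF, MAFG, GCLC, SLC7A11, TXN and AKR1B1 (a further gene that the rule allows is not reported here), and for each of the 10 genes the 2 nearest patterns among genes of average log2 CPM of at least 2. Positions are from GENCODE v29, whose exon lengths differ from the deposited ones for some genes; promoters are RefSeq windows.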

Additional observations from a re-analysis of the deposited data

Results flagged for a closer look

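The effect of the hairpin differed between the lines for 7 of 108 pathway genes tested (6.48%, against 3.75% of all genes) when the interaction was tested over 12 libraries (HCC1187 effect minus MDA-MB-468 effect, log2, edgeR): GLRX by -1.47 (adjusted p = 0.0144), SLC7A11 by -1.35 (0.0458), GPX8 by -1.19 (0.021), TNFSF9 by -1.10 (0.0485), MAFF by -1.06 (0.0307), ME1 by -0.95 (0.0406) and GSTZ1 by -0.74 (0.0414). Each had a positive log2 fold change in MDA-MB-468 with S4 included, from 0.09 for MAFF to 1.15 for GLRX, and a negative one in HCC1187. None of these rises was called by edgeR in MDA-MB-468 with S4, and the fall of GLRX was not called in HCC1187 (adjusted p = 0.0565). The interaction of these genes without S4 is not given here. Over all genes, calls of this test went from 613 to 129 when S2 was left out. NQO1 differed by the same test without S4, by 0.83 (adjusted p = 0.00998). Its level in HCC1187 rests on 77 counts in 3 control libraries.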

How the results depend on the processing

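The MDA-MB-468 result turned on library S4, and the cause of its position was not tested. Counts over all genes tested at the same setting stand in brackets. With all 6 libraries 0 of the 10 genes were called. The count was 2 with no filter on low counts (1441 of 26996) and 1 with all libraries in 1 fit (887 of 16328). It was 0 to 9 when each library was left out, the 9 without S4 (5676 of 13947). Without S4 it was 1 when a log2 fold change of at least 1 was also required (1284 of 13947). It was 7 of 8 features with AKR1C1 to AKR1C3 summed, and 8 or 9 at the other settings that kept both S5 and S6. In HCC1187 the fold requirement left 1 of 3 (327 of 14970). For the difference between the lines it was 1 with no filter (1415 of 32821) and 0 to 1 when each library was left out. Without S4 it was 0 with the fold requirement (1332 of 16807), 2 with library totals (4428 of 16807) and 3 with limma-voom (4414 of 16807). It was 0 to 2 when each further library other than S5 and S6 was left out. Calls of AKR1C2 and AKR1C3 among these (limma-voom, or without S3, S7 or S11) rest on 2 against 6 and 4 against 9 counts in HCC1187 and carry no weight. Signs reversed only for uncalled values. With library totals these were NFE2L2 in HCC1187 (0.016) and, in the difference between lines, GCLM (0.056) and TXNRD1 (0.055; 0.043 with limma-voom). Leaving out each library, AKR1C3 in MDA-MB-468 ranged from -0.515 to 0.074 and NFE2L2 in HCC1187 from -0.116 to 0.001. In the difference between lines the ranges were -1.024 to 0.077 for HMOX1, -0.098 to 0.084 for GCLM, -0.161 to 0.315 for TXNRD1 and -0.018 to 0.527 for SRXN1, and without S4 as well -0.076 to 0.234 for HMOX1 and -0.625 to 0.134 for AKR1C1. Over all genes, calls in MDA-MB-468 went from 1 to 304 with DESeq2, 887 with all libraries in 1 fit, 1441 with no filter and 5676 without S4 (3422 without S6 too); in HCC1187 from 3418 to 1499 with all libraries in 1 fit and 2213 without S8; in the difference from 613 to 1170 with DESeq2, 1415 with no filter, 4300 without S4 and 129 without S2. Library totals moved the share of rises among the calls of the difference from 33.0% to 46.9%, and without S4 from 48.6% to 59.2%. No paired analysis was possible because the count columns carry no replicate number. Summing lanes was not run, although the column names give library and lane.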
